A study of Mus musculus with 7 samples.

Results

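The data describe 5 genes, Raet1d, Raet1e, Ulbp1, H60b and H60c, in single cells of the mouse pancreas. They encode ligands of NKG2D and were taken by symbol from the 33864 genes listed in any of the 3 deposited count tables. A gene without a row in one of the tables was taken as 0 there, which concerned only H60c, listed in the i4F table alone. The related genes Raet1a, Raet1b, Raet1c and H60a were not listed in any of the 3 tables.

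Pancreas was collected from C57BL/6 mice of 2 months, 1 mouse per library. The 2 WT mice and the 3 i4F mice drank water with doxycycline at 1 mg/ml and 7.5% sucrose for 7 days. The i4F mice (genotype i4F-B) are heterozygous for a transgene, inserted in Pparg, that expresses the reprogramming factors Oct4, Sox2, Klf4 and c-Myc when doxycycline is given, and for rtTA in Rosa26, and expression is not restricted to a tissue. The 2 caerulein mice were wild type and received injections of caerulein, a cholecystokinin analogue that causes mild acute pancreatitis, at 100 µg/kg, 7 times a day at hourly intervals on 2 consecutive days, and are labelled without doxycycline.

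NKG2D, encoded by Klrk1, is an activating receptor on natural killer (NK) cells and on subsets of T cells. Its ligands resemble MHC class I molecules but present no peptide, and they are displayed by transformed, infected or stressed cells and by some dividing cells. In the mouse they fall into the RAE-1 family (the Raet1 genes), MULT-1 (Ulbp1) and the H60 family. The receptor has no signalling tail of its own and works through the adaptors DAP10 (Hcst) and DAP12 (Tyrobp). Ligand mRNA is not the same as ligand at the cell surface, since translation, shedding by proteases and degradation also set the surface level.

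All 5 genes lie on chromosome 10 (GRCm38, GENCODE vM21). Raet1d spans chr10:22360552-22374139 and Raet1e chr10:22158569-22374139, both on the plus strand, and H60b (chr10:22158586-22288849, plus strand) overlaps Raet1e. Ulbp1 lies at chr10:7440362-7473638 and H60c at chr10:3256208-3267771, both on the minus strand. The libraries read the 3′ ends of transcripts, and there the RAE-1 genes are nearly the same. The last exon of Raet1d (363 bases, chr10:22373777-22374139) is also the last exon of 1 of the 4 annotated Raet1e transcripts, and it matched the last exon of the main Raet1e transcript at 353 of 360 aligned bases (98.1%). Every one of its 304 windows of 60 bases occurred in an annotated Raet1e transcript, and 109 of them (35.9%) still did when that transcript was left out. How UMIs were split between Raet1d and Raet1e is therefore uncertain, and differences between these genes below carry that limit. The annotation release the authors counted with is not given in the sources used here and may not be the one described, and it decides how reads from the shared exon were assigned.

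Promoters of 3 of the genes are shown, because the genes they precede were the ones whose levels differed between groups or cell states. They were taken from RefSeq (GRCm38.p6), span 300 bases around the annotated start, and are written on the strand of the gene. Capitals mark matches, on either strand, to 6 motifs that were searched. The E2F-type motif was searched as TTCCCGC, and the alternative form of the same motif as TTGGCGC. For the GC box the letters GGGCGG were used. The AP-1 motif was written as TGANTCA, which leaves its middle base free. The CCAAT box was searched by the letters of its name. The TATA motif was taken in its plain form as TATAAA. For the heat-shock pair, which joins inverted repeats of the same short unit, GAANNTTC was used.
Raet1d (chr10:22361644-22361943, plus strand): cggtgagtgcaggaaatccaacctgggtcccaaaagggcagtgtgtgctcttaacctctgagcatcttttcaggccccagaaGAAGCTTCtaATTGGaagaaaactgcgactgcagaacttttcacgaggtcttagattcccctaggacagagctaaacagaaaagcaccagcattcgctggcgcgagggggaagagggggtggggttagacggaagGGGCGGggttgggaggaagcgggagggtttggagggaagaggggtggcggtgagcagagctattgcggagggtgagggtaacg
Raet1e, upstream start (chr10:22158319-22158618, plus strand): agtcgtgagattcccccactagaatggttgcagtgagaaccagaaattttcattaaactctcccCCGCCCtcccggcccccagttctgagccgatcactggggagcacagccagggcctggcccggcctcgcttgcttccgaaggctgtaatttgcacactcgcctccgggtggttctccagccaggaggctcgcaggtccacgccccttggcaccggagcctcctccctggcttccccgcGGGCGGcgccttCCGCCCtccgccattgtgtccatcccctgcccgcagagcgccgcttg
Raet1e, downstream start (chr10:22173247-22173546, plus strand): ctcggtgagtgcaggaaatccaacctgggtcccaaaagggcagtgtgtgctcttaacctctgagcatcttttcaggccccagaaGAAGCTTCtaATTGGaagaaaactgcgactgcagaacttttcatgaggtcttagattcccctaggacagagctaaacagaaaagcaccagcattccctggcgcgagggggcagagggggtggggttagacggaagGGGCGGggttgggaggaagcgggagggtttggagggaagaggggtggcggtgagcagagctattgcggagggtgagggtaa
Ulbp1 (chr10:7473428-7473727, minus strand): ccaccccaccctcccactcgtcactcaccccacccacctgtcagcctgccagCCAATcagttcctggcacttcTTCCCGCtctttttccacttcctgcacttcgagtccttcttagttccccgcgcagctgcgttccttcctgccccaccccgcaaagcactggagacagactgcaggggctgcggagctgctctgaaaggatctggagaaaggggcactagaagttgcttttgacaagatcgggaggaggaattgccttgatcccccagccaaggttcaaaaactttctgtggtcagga
The downstream Raet1e promoter was identical to that of Raet1d at 295 of 298 aligned bases (99.0%). Both held a GC box (found in 35.7% of the 32851 promoters of the table), a CCAAT box (37.4%) and a heat-shock pair (7.86%), which lies at position -168 relative to the start of Raet1d. The upstream Raet1e promoter held 3 GC boxes and none of the other motifs. Ulbp1 had the only E2F-type match among these promoters, at position -177 relative to its start, a motif held by 6.81% of all promoters, and a CCAAT box. The AP-1 motif (7.81% of all promoters) and the TATA motif (13.6%) were in none of them, and the H60c promoter held none of the 6. Promoters are described by their letters only, since binding was not measured here.

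The 7 libraries held 4327 to 15138 cells and 15469018 to 64784216 UMIs (unique molecular identifiers, 1 per captured mRNA molecule). A single UMI weighs most in i4F 3, caerulein 2 and the WT libraries, where 3 UMIs correspond to 0.145 to 0.194 CPM (UMIs of a gene per 1000000 UMIs), against 0.0463 to 0.0795 in the other 3. Libraries shared 3 to 39 cell barcodes in pairs, at most 0.411% of the smaller library. All 5 genes were sparse. Raet1d had 1215 UMIs in 1139 of 58473 cells, Raet1e 1107 in 1035 cells and Ulbp1 1155 in 1039 cells, with at most 4 UMIs of any of them in a cell. H60b had 28 UMIs in 28 cells and H60c a single UMI. UMIs of at least 2 of the 5 genes were found together in 190 cells. Cells with a ligand UMI had a median of 7874 UMIs and cells without one 2491, so values are given below as levels in UMIs summed over cells and not as shares of positive cells.

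Over all cells of a mouse, Raet1d was at 0.297 and 0.339 CPM in the 2 WT mice, at 6.54, 4.40 and 0.776 CPM in the 3 i4F mice and at 7.55 and 8.19 CPM in the 2 caerulein mice. All i4F and caerulein mice were above both WT mice, and i4F 3 was far below the other i4F mice. Ulbp1, which encodes MULT-1, was at 2.91 and 1.70 CPM in WT, 5.40, 4.08 and 2.39 CPM in i4F and 6.71 and 6.90 CPM in caerulein mice, and only i4F 3 overlapped the WT range. Raet1e was at 5.83 and 3.68 CPM in WT, 4.0, 5.80 and 2.39 CPM in i4F and 5.37 and 5.09 CPM in caerulein mice. For Raet1e the WT range covered every mouse except i4F 3, which was below it. H60b was at most 0.129 CPM in 6 of the 7 libraries and reached 0.340 CPM in caerulein 1 (22 UMIs, exact Poisson 95% interval 0.213 to 0.514 CPM), against 0 UMIs in caerulein 2, where the upper limit of the same interval is 0.216 CPM, so the 2 intervals overlap. Intervals of this kind cover counting error only.

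**Figure D1:**
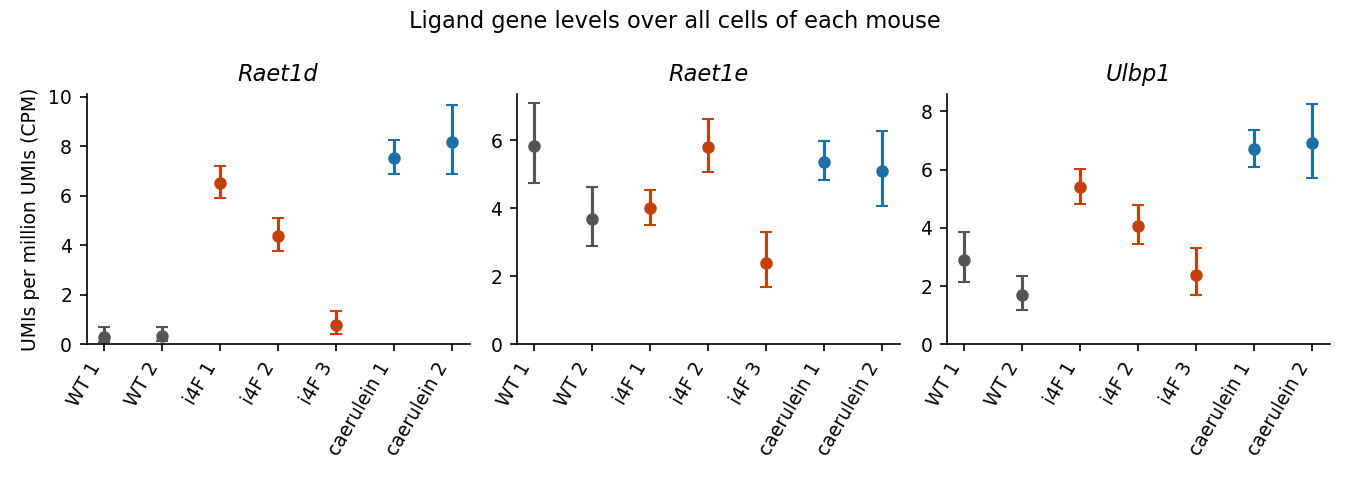
Levels of Raet1d, Raet1e and Ulbp1 in CPM over all cells of each of the 7 mice, with exact Poisson 95% intervals as error bars. Raet1d lies at 0.297 to 0.339 CPM in WT and at 0.776 to 8.19 CPM in the other mice, whereas the Raet1e levels of the groups overlap.

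Tested over all cells with edgeR, 2 of the 3 genes that passed the filter on low counts were higher in caerulein than in WT mice, where 5.15% of the 18340 genes tested were higher. The log2 fold change was 4.99 ± 1.00 (SE) for Raet1d (edgeR adjusted p = 0.0412) and 1.97 ± 0.46 for Ulbp1 (edgeR adjusted p = 0.0490). Raet1d passed the filter only through i4F and caerulein libraries, so its difference from WT was built into the selection. The number of ligand genes called fell to 0 without WT 1, WT 2, i4F 2, caerulein 1 or caerulein 2, and to 1 without i4F 1, and was 2 without i4F 3. It was also 0 with the library title series as a term (WT 1 and the i4F libraries against WT 2 and the caerulein libraries), and 1, Raet1d, with library size alone in place of TMM scaling. Within the series Raet1d was at 0.297 CPM in WT 1 against 0.776 to 6.54 CPM in i4F, and at 0.339 CPM in WT 2 against 7.55 and 8.19 CPM in caerulein mice. In i4F against WT mice edgeR called none of the 3 (2 at an unadjusted p under 0.05, 2 called by DESeq2), with log2 fold changes of 4.0 ± 0.94 for Raet1d (edgeR adjusted p = 0.0639) and 1.2 ± 0.42 for Ulbp1 (edgeR adjusted p = 0.106). In that comparison 0% of all genes were called, and 0% in i4F against caerulein mice, where none of the 3 was called by edgeR or DESeq2 or had an unadjusted p under 0.05. Leaving out i4F 3 brought 2 calls in i4F against WT mice. Immune cells made up 5.15 and 11.8% of the WT libraries and 37.2 to 56.9% of the others, and the part of this mix in the levels was not tested.

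Among non-immune cells alone, Raet1d was at 0.317 and 0.324 CPM in WT, 6.74, 4.34 and 0.777 CPM in i4F and 6.18 and 6.95 CPM in caerulein mice. Ulbp1 was at 2.79 and 1.24 CPM in WT, 5.97, 5.02 and 1.85 CPM in i4F and 7.91 and 7.30 CPM in caerulein mice. Raet1e was at 6.09 and 4.11 CPM in WT, 4.12, 5.29 and 3.30 CPM in i4F and 7.48 and 6.42 CPM in caerulein mice, so that i4F overlapped WT and both caerulein mice lay above both WT mice. For Raet1d the i4F and caerulein mice were again all above WT, and for Ulbp1 i4F 3 again lay within the WT range. None of the 3 genes that passed the filter was called by edgeR in any of the 3 comparisons, in which 0, 0.0728 and 0% of the 17849 genes were called (i4F against WT, caerulein against WT, i4F against caerulein mice). At an unadjusted p under 0.05 there were 2, 2 and 0, and DESeq2 called 1, 2 and 0. The edgeR adjusted p of Raet1d was 0.0920 for i4F and 0.0764 for caerulein against WT, with log2 fold changes of 4.01 ± 0.93 and 4.64 ± 0.98. Without i4F 3, both Raet1d and Ulbp1 were called in each of these comparisons. Raet1d passed the filter without any WT library here too, so its difference from WT was built in, whereas Ulbp1 passed in both WT libraries. The comparisons with WT share the same 2 WT mice.

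The cells that held the UMIs differed between genes and groups. In WT mice, ductal cells held 44.8% of the 174 Raet1e UMIs and endothelial cells 42.0%, while stellate cells held 1.72%. In i4F mice, stellate cells held 53.8% of the Raet1e UMIs, 79.4% of the Raet1d UMIs and 85.3% of the Ulbp1 UMIs, summed over 3 mice of unequal depth. In i4F 3 alone, which held few UMIs, stellate cells had 16.2% of the Raet1e UMIs, below acinar and ductal cells with 29.7% each, 6 of the 12 Raet1d UMIs and 37.8% of the Ulbp1 UMIs. In caerulein mice, acinar cells held 44.6% of the Raet1e UMIs, and Raet1d was divided between macrophages (45.3%) and stellate cells (41.3%). Stellate cells also held 63.3% of the caerulein Ulbp1 UMIs. These shares add up cell number, depth and level.

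**Figure D2:**
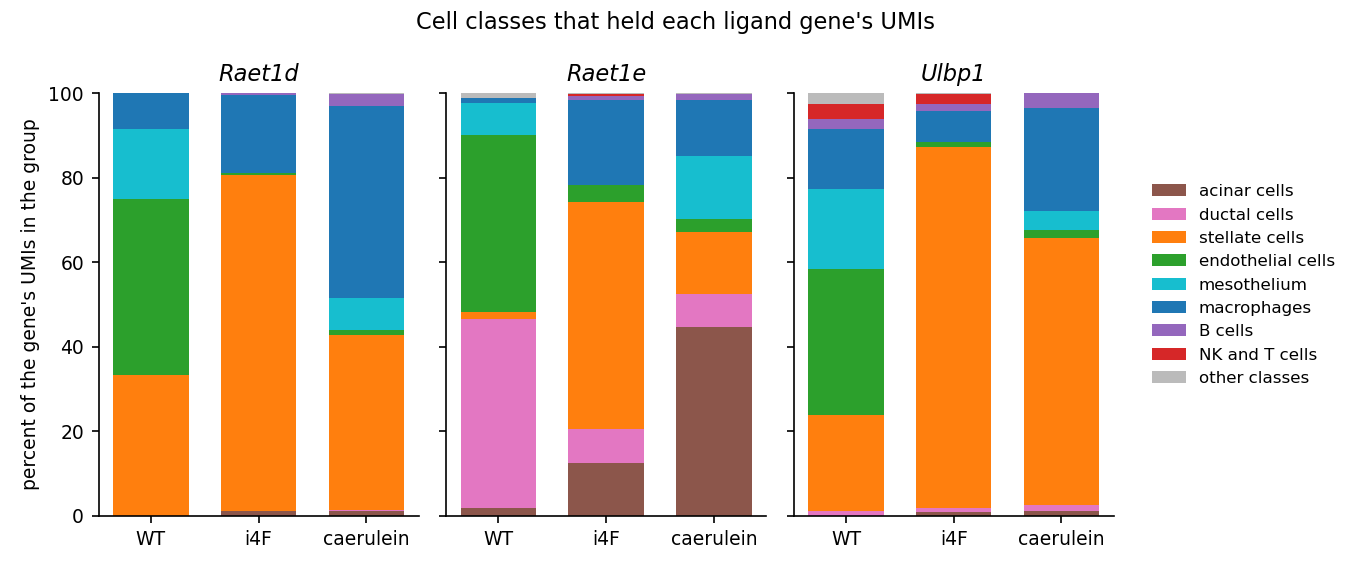
Percent of the UMIs of each gene, summed over the mice of a group, that fell in each cell class, by the authors' cluster names. For Raet1e, ductal (44.8%) and endothelial cells (42.0%) hold most UMIs in WT, stellate cells 53.8% in i4F and acinar cells 44.6% in caerulein mice.

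Levels per cell class were computed from the authors' clusters, which they named separately in each condition. Names were checked against marker genes. The large stellate clusters carried stellate markers such as Col1a1 and Pdgfra, but the small WT cluster named activated stellate did not, and i4F Activated_Pancreatic_Stellate_2 carried 3 of 8. Of 12 acinar markers looked up, only 3 had a row in any of the count tables. The UMIs of the missing ones are therefore in no total used for CPM, and the effect on acinar levels was not tested. The i4F cluster Acinar_2 was enriched for 4 of 7 ductal markers and for none of these 3 acinar markers. The i4F cluster Macrophages_2 and the caerulein cluster Macrophages_3 led with neutrophil markers. WT Macrophages_2 led with markers of immune cells in general, followed by dendritic cell markers, of which 5 of 5 were enriched. The i4F cluster Macrophages_3 was enriched for 2 of 5 dendritic cell markers, and it held 282 of the 480 macrophages of i4F 3. No caerulein cluster was named as NK or T cells.

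In WT mice Raet1e was highest in endothelial cells (20.5 and 12.2 CPM), followed by mesothelium (9.40 and 13.7 CPM), ductal cells (7.25 and 8.36 CPM), acinar cells (2.61 and 1.22 CPM), macrophages (3.07 and 0 CPM) and stellate cells (0.375 and 0.110 CPM). Endothelial cells and mesothelium overlapped, and macrophages overlapped both acinar and stellate cells. The 2 mice did not overlap between mesothelium and ductal cells, between ductal and acinar cells or between acinar and stellate cells. Summed over both mice, however, acinar and stellate cells held 3 Raet1e UMIs each and macrophages 2. The exact Poisson intervals of these sums overlapped between acinar (0.390 to 5.53 CPM) and stellate cells (0.0428 to 0.606 CPM). They also overlapped between mesothelium (13 UMIs, 6.02 to 19.3 CPM) and ductal cells (78 UMIs, 6.09 to 9.62 CPM). Among these neighbouring pairs, only the order of ductal above acinar cells was thus also outside counting error. Endothelial cells (73 UMIs, 12.6 to 20.1 CPM) lay above ductal cells both by mouse and by these intervals. Raet1e had 0 UMIs in WT B cells, NK and T cells and endocrine cells. Ulbp1 in WT was at 18.8 and 7.82 CPM in mesothelium, 5.47 and 8.56 CPM in NK and T cells, 8.11 and 4.87 CPM in endothelial cells and 4.61 and 6.10 CPM in macrophages, and neighbours in this order overlapped. It was lower in stellate cells (2.25 and 0.767 CPM), which by mouse overlapped none of them. Summed over both mice, the exact Poisson interval of stellate cells (0.791 to 2.05 CPM) overlapped that of NK and T cells (3 UMIs, 1.49 to 21.1 CPM). Ductal cells held 1 Ulbp1 UMI (0.0988 CPM) and acinar cells 0. The lymphatic cluster held only 2 Raet1e and 2 Ulbp1 UMIs. Raet1d had at most 4 UMIs in any WT class of a mouse, so no order could be read from it.

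**Figure D3:**
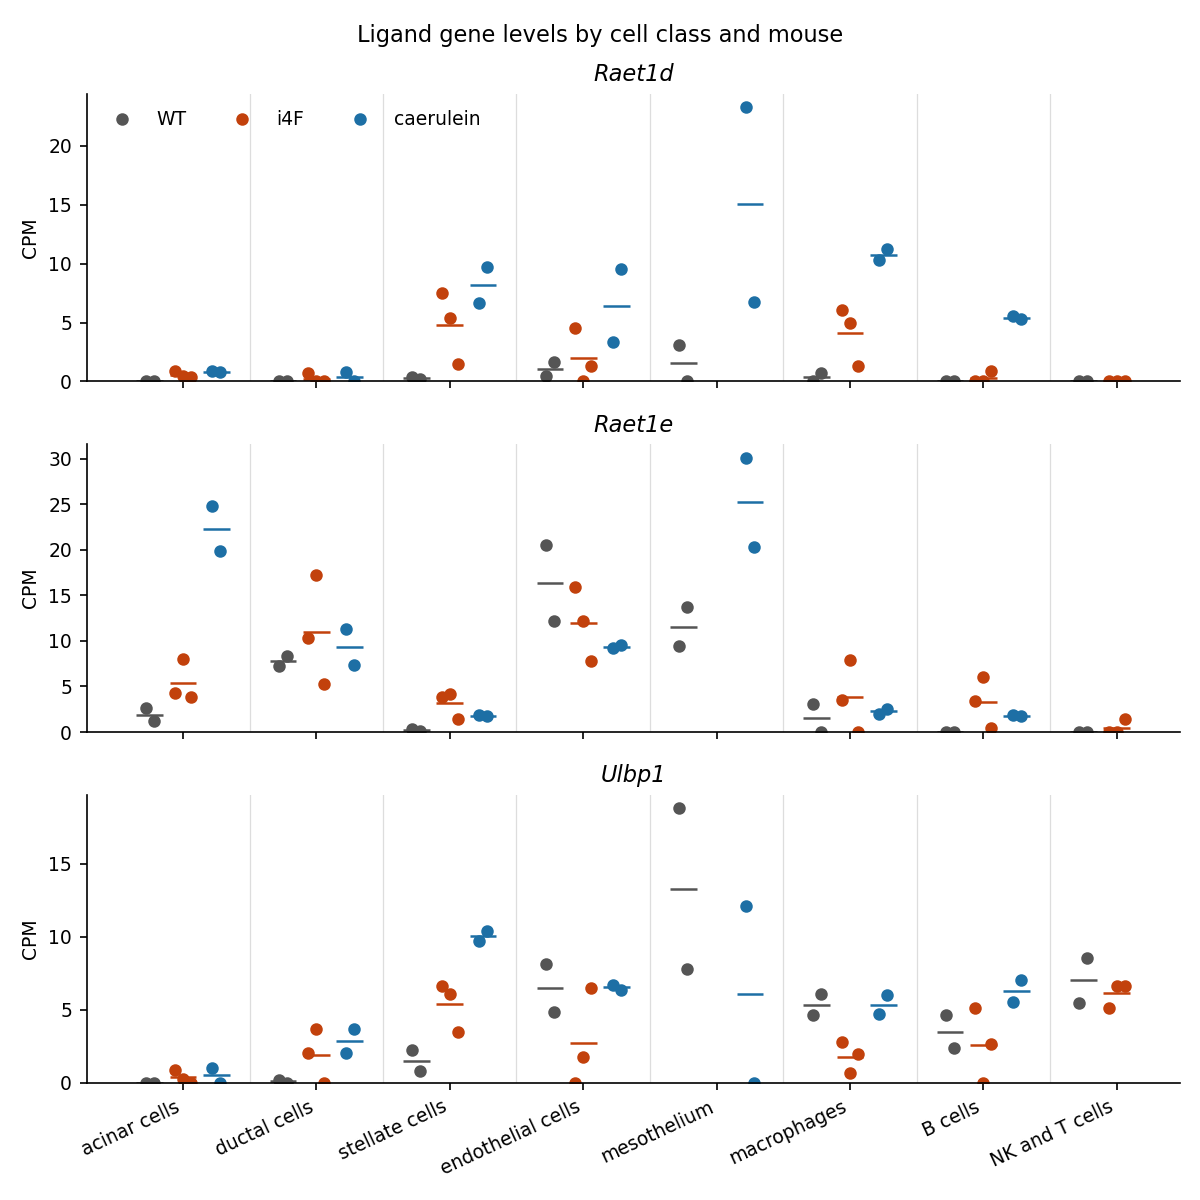
CPM of Raet1d, Raet1e and Ulbp1 in 8 cell classes, with a point per mouse, a horizontal line at the group mean and colours for WT, i4F and caerulein. In caerulein mice Raet1d reaches 9.72 CPM in stellate cells, 11.2 CPM in macrophages and 23.3 CPM in mesothelium, and Raet1e is highest in mesothelium (30.1 and 20.3 CPM) and acinar cells (24.8 and 19.8 CPM).

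In stellate cells, the matrix-producing fibroblast-like cells of the pancreas, Raet1d, Raet1e and Ulbp1 were all higher in i4F and in caerulein mice than in WT. Raet1d was at 0.375 and 0.219 CPM in WT (2 UMIs each), 7.50, 5.40 and 1.48 CPM in i4F (325, 125 and 6 UMIs) and 6.70 and 9.72 CPM in caerulein mice (187 and 73 UMIs). Raet1e was at 0.375 and 0.110 CPM in WT, 3.81, 4.19 and 1.48 CPM in i4F and 1.83 and 1.73 CPM in caerulein mice. Ulbp1 was at 2.25 and 0.767 CPM in WT, 6.63, 6.09 and 3.46 CPM in i4F and 9.74 and 10.4 CPM in caerulein mice. No i4F or caerulein mouse overlapped the WT mice for any of these genes. i4F 3 was the lowest mouse outside WT for each of them.

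**Figure D4:**
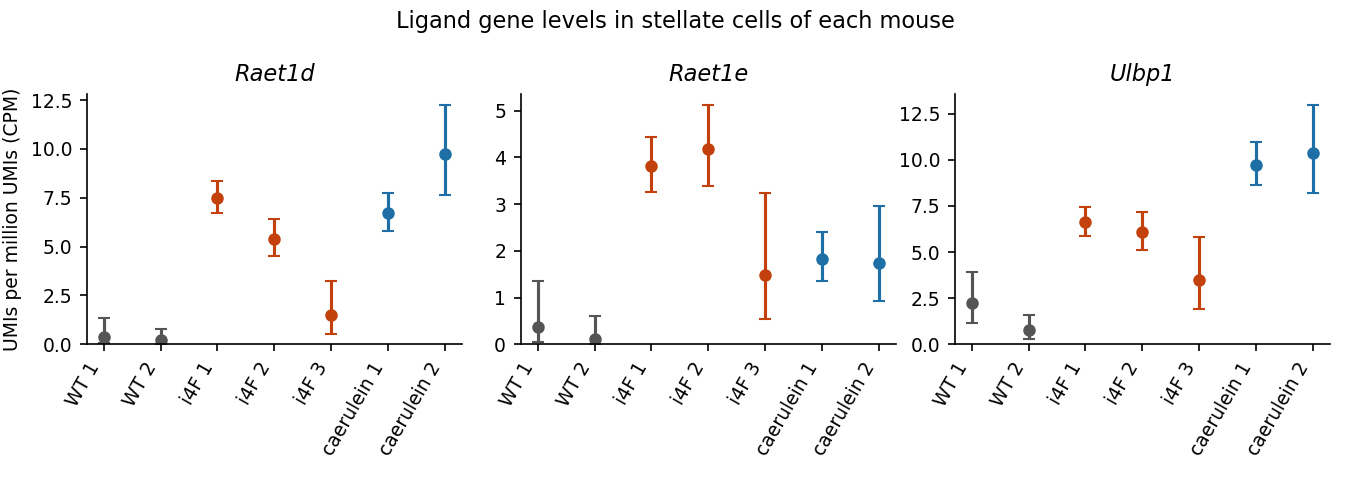
CPM of Raet1d, Raet1e and Ulbp1 in the stellate cells of each mouse, with exact Poisson 95% intervals as error bars. All 5 i4F and caerulein mice lie above both WT mice for each gene, with i4F 3 the lowest of the 5.

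Of the 3 ligand genes that passed the filter in stellate cells, edgeR called all 3 higher in i4F than in WT mice, where 12.0% of 14818 genes were higher. The log2 fold change was 4.30 ± 0.81 (SE) for Raet1d, with a mean of 4.80 ± 3.05 CPM (SD, n = 3) in i4F against 0.297 ± 0.110 CPM (SD, n = 2) in WT (edgeR adjusted p = 0.0235). Raet1e rose by a log2 fold change of 4.07 ± 0.70 (edgeR adjusted p = 0.0198). Since WT stellate cells held only 3 Raet1e UMIs, the ratio of the summed levels, 18.3, has a wide 95% counting interval of 6.20 to 89.4. Ulbp1 rose by 2.14 ± 0.47 on the log2 scale (edgeR adjusted p = 0.0290). Raet1d and Raet1e passed the filter through i4F and caerulein libraries alone, so that a difference from WT was built in. Ulbp1 also reached the level needed in 1 WT library. The filter needed 2 libraries, however, so Ulbp1 too could not have passed without i4F or caerulein libraries.

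The same 3 were higher in caerulein than in WT mice, where 9.99% of the genes were higher. Log2 fold changes were 4.96 ± 0.83 for Raet1d (edgeR adjusted p = 0.0176), 3.18 ± 0.75 for Raet1e (edgeR adjusted p = 0.0350) and 2.99 ± 0.49 for Ulbp1 (edgeR adjusted p = 0.0166). For Raet1d and Raet1e, which reached the level needed by the filter in no WT library, a difference from WT was built in here too. Between i4F and caerulein mice edgeR and DESeq2 called none of the 3, none had an unadjusted p under 0.05, and 0.459% of all genes were called. The differences, i4F minus caerulein on the log2 scale, were -0.66 ± 0.51 for Raet1d, 0.89 ± 0.47 for Raet1e and -0.85 ± 0.37 for Ulbp1. The direction for Raet1e depended on the model, since it was -0.66 with the library title series, which separates the i4F from the caerulein libraries, as a term.

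The calls against WT needed nearly all mice. In i4F against WT, 0 of the 3 were called without WT 1, WT 2, i4F 1, i4F 2, caerulein 1 or caerulein 2, and 3 without i4F 3. In caerulein against WT, 0 were called without WT 1, WT 2, caerulein 1 or caerulein 2, 2 without i4F 1 or i4F 2, and 3 without i4F 3. The directions stayed the same, with log2 fold changes of Raet1d in i4F against WT between 3.84 and 4.63 and adjusted p up to 0.140. WT 1 and the i4F libraries carry titles that begin with AL, and WT 2 and the caerulein libraries titles that begin with AM. Within the first series Raet1d was at 0.375 CPM in WT 1 against 1.48 to 7.50 CPM in i4F, and within the second at 0.219 CPM in WT 2 against 6.70 and 9.72 CPM in caerulein mice. With the series as a term, none was called in either comparison. With only the groups compared in the fit, 0 of 3 were called in i4F against WT.

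WT stellate cells came mostly from the cluster Quiescent_Pancreatic_Stellate_1 (828 and 1911 cells), and i4F and caerulein stellate cells from clusters named activated, so the groups also differ in the clusters that represent them. Leaving out the WT cluster named activated, or i4F Activated_Pancreatic_Stellate_2, left 3 of 3 called in both comparisons with WT. In i4F 3, 1167 of 1280 stellate cells were in Activated_Pancreatic_Stellate_2, and 113 in Activated_Pancreatic_Stellate_1. Each of these clusters held 3 Raet1d UMIs in that mouse, too few to tell their levels apart (0.990 CPM, exact Poisson 95% interval 0.204 to 2.89, and 2.96 CPM, 0.611 to 8.66). Summed macrophage markers in stellate cells, all 7 of them detected in 6 libraries and 6 of 7 in WT 1, were at 14.2 and 37.7 CPM in WT, 195 to 397 CPM in i4F and 931 and 1431 CPM in caerulein mice, against 18542 to 30829 CPM in macrophages. Summed ductal markers, with 6 or 7 of 7 detected in each library, were at 75.2 and 195 CPM in WT stellate cells, 408 to 3823 CPM in i4F and 615 and 760 CPM in caerulein mice, against 28067 to 47353 CPM in ductal cells. Their part in the ligand differences was not tested. In ductal cells themselves Raet1d had 0 to 2 UMIs per mouse.

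Macrophages, phagocytes that also carry the NKG2D adaptors, also held more Raet1d in caerulein than in WT mice. It was at 0 and 0.678 CPM in WT (0 and 1 UMI), 6.08, 4.98 and 1.29 CPM in i4F (65, 39 and 2 UMIs) and 10.3 and 11.2 CPM in caerulein mice (227 and 58 UMIs). All i4F and caerulein mice were above WT. In caerulein against WT mice, edgeR called Raet1d alone of the 3 ligand genes that passed the filter, with a log2 fold change of 4.52 ± 1.00 (edgeR adjusted p = 0.0450), where 2.24% of 12077 genes were higher. The ratio of the summed levels was 22.2 with a 95% counting interval of 3.96 to 881, since WT had 1 UMI, and Raet1d passed the filter without any WT library. The call was lost without WT 1, WT 2, i4F 1, i4F 2, caerulein 1 or caerulein 2, with 0 of 3 called each time, and with the library title series as a term (0 of 3). Without the clusters described above as enriched for neutrophil or dendritic cell markers it held (3.88 on the log2 scale, edgeR adjusted p = 0.0164, against 7.97e-06 to 0.236 over all alternatives). Within the series Raet1d was at 0 CPM in WT 1 against 1.29 to 6.08 CPM in i4F, and at 0.678 CPM in WT 2 against 10.3 and 11.2 CPM in caerulein mice.

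Raet1e and Ulbp1 did not follow Raet1d in macrophages. Raet1e was at 3.07 and 0 CPM in WT, 3.56, 7.92 and 0 CPM in i4F and 1.99 and 2.52 CPM in caerulein mice, so the groups overlapped. Ulbp1 was at 4.61 and 6.10 CPM in WT, 2.81, 0.639 and 1.94 CPM in i4F and 4.71 and 6.00 CPM in caerulein mice. For Ulbp1 all i4F mice were below all others, but the difference between i4F and WT, -1.50 ± 0.69 on the log2 scale, did not pass (edgeR adjusted p = 0.274). In i4F against WT macrophages edgeR called 0 of 3 (1 at an unadjusted p under 0.05, 0 by DESeq2) and 0.00828% of all genes. In i4F against caerulein macrophages it called 0 of 3 (2 at an unadjusted p under 0.05, 0 by DESeq2) and 1.67% of all genes. Without i4F 3, Raet1d was called in i4F against WT.

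Acinar cells make digestive enzymes, and Raet1e was the only ligand gene that passed the filter there. It was at 2.61 and 1.22 CPM in WT (2 and 1 UMIs), 4.25, 8.05 and 3.81 CPM in i4F (15, 36 and 11 UMIs) and 24.8 and 19.8 CPM in caerulein mice (146 and 48 UMIs). By mouse the 3 groups did not overlap. Between i4F and WT mice, however, the ratio of the summed levels was 3.01, with a 95% counting interval of 0.983 to 15.0 that includes 1. The log2 fold change there was 1.31 and did not pass (edgeR adjusted p = 0.248). The difference between caerulein and WT mice was 2.96 ± 0.62 on the log2 scale and did not pass (edgeR adjusted p = 0.0716, 0.00119 to 0.395 over 15 alternative settings), although it had an unadjusted p under 0.05 and was called by DESeq2. The ratio of the summed levels was 12.3 (95% counting interval 4.16 to 60.3), and Raet1e passed the filter without any WT library. Between i4F and caerulein mice the difference was -1.65 ± 0.37 (edgeR adjusted p = 0.0895, 0.00642 to 0.749 over 14 settings). Without i4F 3 both differences from caerulein mice were called. Of the 11134 genes tested in acinar cells, 0.0808% were called in i4F against WT mice, 0.0359% in caerulein against WT mice and 0.126% in i4F against caerulein mice, and edgeR called 0 ligand genes in each (0, 1 and 1 at an unadjusted p under 0.05, 0, 1 and 0 by DESeq2). The acinar cells of i4F 1 and i4F 2 were nearly all in the cluster Acinar_2, whose markers were ductal, with 583 and 746 cells, whereas those of i4F 3 were mostly in Acinar_1. Summed ductal markers in acinar cells were at 1086 and 1674 CPM in WT, 2188 to 6907 CPM in i4F and 8851 and 9570 CPM in caerulein mice, and their part in the Raet1e values was not tested. Raet1d and Ulbp1 had 0 UMIs in WT acinar cells and 0 to 6 in each of the other mice.

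In ductal cells Raet1e was at 7.25 and 8.36 CPM in WT, 10.3, 17.3 and 5.30 CPM in i4F and 11.3 and 7.38 CPM in caerulein mice, and the groups overlapped. Raet1e, the only ligand gene that passed the filter there, was not called in any comparison by edgeR or DESeq2 and had no unadjusted p under 0.05, beside 0.00861, 3.53 and 0.387% of 11619 genes called (i4F against WT, caerulein against WT, i4F against caerulein mice). Ulbp1 had 1 and 0 UMIs in WT ductal cells, 3, 3 and 0 in i4F and 5 and 3 in caerulein mice. In endothelial cells Raet1e was at 20.5 and 12.2 CPM in WT, 15.9, 12.2 and 7.81 CPM in i4F and 9.23 and 9.52 CPM in caerulein mice. The caerulein mice were below both WT mice, but the difference of -0.66 ± 0.47 on the log2 scale did not pass (edgeR adjusted p = 0.469). None of the endothelial comparisons called it with edgeR or DESeq2 or gave an unadjusted p under 0.05, beside 0.810, 4.11 and 0.601% of 8153 genes called. WT endothelial Raet1e was high in both clusters, at 13.1 CPM in Endothelial_1 and 35.9 CPM in Endothelial_2 over both mice.

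Mesothelium, the lining of the organ surface, was named only in WT and caerulein mice. Raet1d there was at 3.13 and 0 CPM in WT (2 and 0 UMIs) and 23.3 and 6.77 CPM in caerulein mice (48 and 1 UMIs), and Raet1e at 9.40 and 13.7 CPM against 30.1 and 20.3 CPM. Ulbp1 was at 18.8 and 7.82 CPM in WT and at 12.1 and 0 CPM in caerulein mice, where the groups overlapped. Caerulein 2 had 36 mesothelial cells, so its values rest on 1, 3 and 0 UMIs. B cells had 0 Raet1d UMIs in WT, 0, 0 and 2 in i4F and 15 and 3 in caerulein mice. The caerulein cluster named B lymphocytes was enriched for 2 of 5 dendritic cell markers, Cd209a and H2-Ab1. NK and T cells had 0 Raet1d UMIs in all 5 libraries that named them, whereas Ulbp1 was at 5.47 and 8.56 CPM in WT and 5.15, 6.61 and 6.63 CPM in i4F NK and T cells, on 1 to 9 UMIs each. H60b, a ligand of the H60 family, had 17 of its 22 caerulein UMIs in macrophages and all 22 in caerulein 1. H60c, known from skin, had its single UMI in i4F 1.

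Stellate cells in cell cycle carried more ligand mRNA than the other stellate cells of the same mouse. Cycling cells were those with UMIs of at least 2 of 10 cycling genes, among them Mki67 and Top2a, and no ligand gene entered the split. There were 2 and 0 such cells in WT, 2110, 1206 and 45 in i4F and 1542 and 720 in caerulein stellate cells, so the comparison was made in the 5 i4F and caerulein mice. Raet1d was at 9.19, 6.70 and 13.2 CPM in cycling and 4.99, 3.74 and 0 CPM in other cells of the i4F mice, and at 9.09 and 15.3 CPM against 4.30 and 5.26 CPM in the caerulein mice. Ulbp1 was at 9.31, 8.63 and 17.6 CPM in cycling and 2.64, 2.85 and 1.67 CPM in other cells of the i4F mice, and at 15.4 and 15.3 CPM against 4.09 and 6.46 CPM in the caerulein mice. Raet1e was at 4.71, 5.24 and 6.59 CPM against 2.47, 2.85 and 0.837 CPM in i4F and at 2.51 and 2.10 CPM against 1.15 and 1.44 CPM in caerulein mice. Each gene was higher in the cycling cells of 5 of 5 mice, but on few UMIs in some of them. Raet1e had 3 UMIs in cycling and 3 in other cells of i4F 3, and 7 and 6 in caerulein 2. Raet1d had 6 and 0 in i4F 3.

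**Figure D5:**
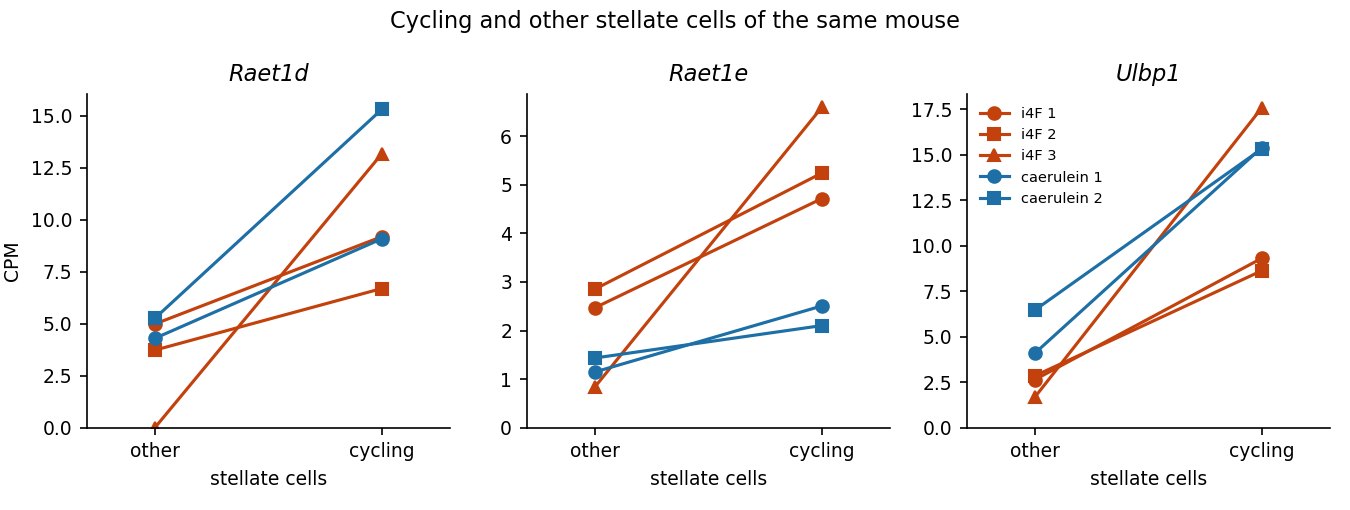
CPM of Raet1d, Raet1e and Ulbp1 in cycling and other stellate cells, with a line joining the values of the same mouse for 3 i4F and 2 caerulein mice. All lines rise, for Ulbp1 from 1.67 to 6.46 CPM in other cells to 8.63 to 17.6 CPM in cycling cells.

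With the mouse as a term, edgeR called all 3 ligand genes tested higher in cycling stellate cells, where 14.9% of 13837 genes were higher. The log2 fold change was 1.75 ± 0.16 for Ulbp1 (edgeR adjusted p = 1.32e-05), 1.07 ± 0.24 for Raet1d (edgeR adjusted p = 0.00646) and 0.95 ± 0.20 for Raet1e (edgeR adjusted p = 0.00468). All 3 were called in each of the 8 alternatives run, including those that left out a mouse. Cycling cells had more UMIs per cell than other cells, on average 12269 against 7632 in i4F 1, 10766 against 6897 in i4F 2, 10121 against 2904 in i4F 3, 9059 against 6537 in caerulein 1 and 4625 against 3166 in caerulein 2. The gap was widest in i4F 3, which had 45 cycling cells, and the part of depth in the ligand differences was not tested. In other stellate cells alone, Raet1d was at 0.377 and 0.219 CPM in WT, 4.99, 3.74 and 0 CPM in i4F and 4.30 and 5.26 CPM in caerulein mice. There i4F 3 had 0 UMIs and lay below both WT mice. The groups were not tested within these cells. For Ulbp1 these cells were at 1.88 and 0.767 CPM in WT, 2.64, 2.85 and 1.67 CPM in i4F and 4.09 and 6.46 CPM in caerulein mice, so i4F 3 lay within the WT range.

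In macrophages, Raet1d was the only ligand gene tested and was higher in cycling cells (log2 fold change 1.06 ± 0.23, edgeR adjusted p = 0.00576), where 13.6% of 8808 genes were higher. It was at 10.1, 9.10 and 0 CPM in cycling and 5.27, 4.60 and 1.47 CPM in other macrophages of the i4F mice, and at 22.5 and 27.6 CPM against 8.78 and 9.16 CPM in the caerulein mice, so it was higher in 4 of 5 mice. Without caerulein 1 it was not called (edgeR adjusted p = 0.0574), and with 1 cycling gene needed in place of 2 no ligand gene passed the filter. Ulbp1, which did not pass the filter, was at 10.7, 1.52 and 5.16 CPM in cycling and 1.23, 0.558 and 1.47 CPM in other macrophages of the i4F mice, and at 13.7 and 22.4 CPM against 3.61 and 3.93 CPM in the caerulein mice. It was higher in cycling cells in 5 of 5 mice, on 1 to 33 UMIs, and was called with Raet1d without i4F 2 or i4F 3 (2 called each time). Without i4F 2, Ulbp1 reached the level needed by the filter only in sums of cycling cells, so a rise was built into that call. Without the filter on low counts all of Raet1d, Raet1e and Ulbp1 were called. Raet1e, which also did not pass the filter, was lower in cycling macrophages in the 4 mice that had a UMI, with 1 to 4 UMIs in the cycling cells of each. In acinar cells Raet1e was not called (edgeR, -0.91 ± 0.35 on the log2 scale, adjusted p = 0.144), with an unadjusted p under 0.05, beside 8.62% of 8631 genes called. DESeq2 was not run for cycling cells. Ductal cells had too few mice with 20 cycling cells for a fit.

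The genes most like each ligand gene across 83 pairs of library and cluster, by Pearson correlation of log2(CPM + 1) over 17246 genes, differed between them. For Ulbp1 they were Ndc80 (0.68), a kinetochore gene, Mcm3 (0.67), a replication helicase subunit, and Clspn (0.67), a replication checkpoint adaptor. For Raet1d they were Espl1 (0.70), which encodes separase, Ap2s1 (0.66) and Aprt (0.64). For Raet1e they were Spns2 (0.70), a sphingosine-1-phosphate transporter, F11r (0.69), a tight junction adhesion protein, and Efna1 (0.68). Raet1d correlated with Ulbp1 at 0.41 and with Raet1e at 0.26, and Raet1e with Ulbp1 at 0.09. These pairs share libraries and depth, so the values are a description.

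Klrk1, the receptor, was at 509 and 295 CPM in the NK and T cells of WT mice and at 175, 43.0 and 61.1 CPM in those of i4F mice. All i4F mice were below both WT mice. The WT cluster was enriched for 4 of 4 T cell and 5 of 5 NK cell markers. The i4F cluster led with T cell markers, followed by markers of immune cells in general. The part of the NK cell share in this Klrk1 difference was not tested. Klrk1 was at most 1.73 CPM in acinar cells and 1.48 CPM in stellate cells of any mouse. Hcst was at 230 and 449 CPM in WT and 546, 453 and 417 CPM in i4F NK and T cells, which overlapped. In macrophages Klrk1 was at 64.5 and 27.1 CPM in WT, 6.74, 6.13 and 26.4 CPM in i4F and 0.181 and 0.581 CPM in caerulein mice (edgeR, caerulein against WT, log2 fold change -7.13 ± 1.02, adjusted p = 0.0328), where 3.42% of genes were lower. The filter on low counts needed 1.94 CPM there, which Klrk1 reached in no caerulein library. It passed through WT and i4F libraries alone, so a lower level in caerulein mice was built in. In caerulein mice Klrk1 lay instead in the cluster named B lymphocytes, at 48.2 and 45.8 CPM (131 and 26 UMIs). WT B cells had 0 Klrk1 UMIs and those of i4F mice 4, 0 and 2. The caerulein cluster was enriched for 2 of 5 dendritic cell markers, and its NK and T cell content is not given here. The cells with Klrk1 thus sat under different cluster names in the groups. Summed dendritic cell markers in macrophages moved with the macrophage level of Klrk1, at 12558 and 9071 CPM in WT, 216 to 6332 CPM in i4F and 53.2 and 53.4 CPM in caerulein mice, with 5 of 5 markers detected in 6 libraries and 2 of 5 in caerulein 2. Their part in the Klrk1 difference was not tested.

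Of 13 receptor and signalling genes, 11 were tested in stellate cells. In i4F against WT 5 rose (12.0% of all genes did) and none fell (median log2 fold change of the list 1.71, of all genes 0.02). Among them were Tyrobp (4.59 ± 0.69, edgeR adjusted p = 0.0184), Lcp2 (3.24 ± 0.80, edgeR adjusted p = 0.0360) and Syk (1.96 ± 0.40, edgeR adjusted p = 0.0260). Vav1 had 45 UMIs in i4F and 0 in WT. It could pass the filter only through i4F and caerulein libraries, so a rise over WT was built in. Whether others on the list passed without a WT library is not given here, so the counts and medians are a description. In caerulein against WT 7 of 11 rose (9.99% of all genes did) and none fell (median 2.37, of all genes -0.04). Several of these, Tyrobp, Syk, Lcp2 and Vav1, are genes of blood cells. The summed macrophage markers given above were also higher in i4F and caerulein than in WT stellate cells. Their part in these differences was not tested.

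Of the 14 listed genes that regulate NKG2D ligands (E2F factors, the DNA damage kinases Atm, Atr, Chek1 and Chek2, proteases that shed ligands and others), 13 were tested in stellate cells. In i4F against WT, where 12.0% of all genes rose, 3 rose, E2f2 (3.32 ± 0.65, edgeR adjusted p = 0.0247), Chek1 (2.50 ± 0.51, edgeR adjusted p = 0.0258) and E2f3 (1.70 ± 0.43, edgeR adjusted p = 0.0387), and 1 fell, March9, a ubiquitin ligase (-2.26 ± 0.60, edgeR adjusted p = 0.0424), where 8.58% of genes were lower. In caerulein against WT, where 9.99% of all genes rose, 4 of 13 rose, E2f2, Chek1, Chek2 and Pdia6, and none fell. In cycling against other stellate cells 8 of the 12 tested rose (14.9% of all genes did) and none fell (median log2 fold change 0.54, of all genes -0.03). Chek1 (2.00 ± 0.18, edgeR adjusted p = 1.10e-05) and E2f2 (1.87 ± 0.25, edgeR adjusted p = 0.000281) led. The cells were split by cycling genes, and listed genes expressed with the cell cycle rise with that split. The count is therefore not independent of how the cells were chosen. The list of other ligands of NK cell receptors held 2 genes, Pvr and Icam1, and both were tested. In i4F against WT stellate cells 1 of 2 rose, Pvr (0.81 ± 0.18, edgeR adjusted p = 0.0285, 12.0% of all genes higher), and in caerulein against WT neither was called. Icam1 fell in cycling against other stellate cells (-0.60 ± 0.12, edgeR adjusted p = 0.00358), where 13.7% of genes were lower. In cycling macrophages, with the same limit, 7 of 12 regulators rose (13.6% of all genes did) and Pdia6 fell. Of 10 receptor and signalling genes tested there, Hcst, Tyrobp and Syk fell, where 14.1% of genes were lower.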

How the data were processed

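Droplet single-cell RNA-seq (10x 3′ v3) was analysed from 7 mouse pancreases. The authors deposited counts of UMIs per gene and cell, 1 table per condition, with cluster names, made with Cell Ranger on mm10 per the labels. Cells in the tables had at least 150 genes and under 5% mitochondrial counts, a deposited percent. Per the study's methods, Seurat and SoupX (removal of free RNA) were used. Whether the counts precede or follow SoupX is not given in the sources used here, nor is the treatment of doublets, and no doublet caller was run. Annotated clusters were pooled into classes, and counts were summed per mouse and class and given as counts per 1000000 UMIs (CPM). Sums with at least 20 cells were tested by edgeR's quasi-likelihood test (edgeR 4.0.16, R 4.3.3) with TMM scaling and filterByExpr, over all 3 groups. The p-values were adjusted over all genes by Benjamini-Hochberg, with a threshold of 0.05. DESeq2 1.42.0 was an alternative, beside others given in the closing section. Cycling and other cells were compared within mice. All 5 ligand genes were reported, with the listed receptor, signalling and regulator genes by count and the 3 most correlated genes. Members and lists were chosen with earlier results of these data known. Intervals are exact Poisson. Each mouse was 1 library. The R scripts were tested on simulated data. Levels were computed with Python 3.11.15, numpy 2.4.6, scipy 1.17.1 and pandas 2.3.3, and figures drawn with matplotlib 3.10.9.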

Additional observations from a re-analysis of the deposited data

How the results depend on the processing

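Of the values of single ligand genes under an alternative, 589 kept their direction and their side of the threshold, 63 lost a call, 39 gained one and 20 changed sign. The cause of these changes was not tested. DESeq2 called 1 and 2 ligand genes in non-immune cells (i4F and caerulein against WT), 2 in all cells of i4F against WT and 1 in acinar cells of caerulein against WT, where edgeR called 0. Without the filter on low counts, the numbers were 1 and 2 in non-immune cells, 1 in all cells of i4F against WT, 1 in acinar cells (caerulein against WT and i4F against caerulein), 1 in ductal cells of caerulein against WT, 1 and 2 in macrophages (i4F against WT and against caerulein) and 3 in cycling macrophages. With library size alone in place of TMM, 1 was called in all cells in each comparison with WT. With only the groups compared in the fit, 2 were called in non-immune and 1 in acinar cells of caerulein against WT, and 0 in stellate cells of i4F against WT. With the library title series as a term, 0 were called in all cells, stellate cells and macrophages of caerulein against WT and in stellate cells of i4F against WT. With 1 cycling gene needed, 0 were called in cycling macrophages.

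With a mouse left out, the number called ranged from 0 to 2 in non-immune and in all cells for each comparison with WT, from 0 to 1 in acinar cells for both comparisons with caerulein mice, from 0 to 3 in stellate cells and from 0 to 1 in macrophages for each comparison with WT, and from 0 to 2 in cycling macrophages. Where an arm was left with 1 mouse, that mouse was assumed to vary like the others.

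Same-numbered mice did not deviate together (r of deviations -0.38 to 0.13), so the mouse number is only a name. With it as a replicate block, 2 ligand genes were called in non-immune cells and 2 in all cells of i4F against WT, 2 in non-immune cells of caerulein against WT, and 1 in acinar cells of caerulein against WT and of i4F against caerulein. With the numbers crossed, a pairing chosen after seeing the data, 2 were called in non-immune and 1 in acinar cells of caerulein against WT.

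Sign changes concerned Raet1e in i4F against WT over non-immune and all cells, with log2 fold changes of -0.26 and -0.22 without TMM and -0.068 and -0.050 with the series, and with a mouse left out between -0.068 (without WT 2) and 0.35 in non-immune cells and between -0.14 (without i4F 2) and 0.44 in all cells. In each, leaving out either of these mice put the value below 0. In i4F against caerulein, Raet1e was at -0.03, -0.35 and -0.19 in ductal cells without i4F 1, i4F 2 and caerulein 2 (highest 0.53 with a mouse left out), and with the series at -0.66 in stellate cells, -0.36 in endothelial cells and -6.25 in macrophages, where Raet1d was at 4.09. In macrophages of caerulein against WT, Raet1e was at -0.37 without WT 2 (7.13 without WT 1, where the remaining WT mouse had 0 Raet1e UMIs and the fitted value depends on the prior count), and Ulbp1, at -0.072 to 0.30 with a mouse left out, was at 0.12 without the filter, 0.00061 in cells with at least 500 genes, 0.30 without WT 2 and 0.16 without caerulein 1. Cycling ductal cells were not fitted, since fewer than 3 mice had 20 such cells. Depth limits the stellate folds against WT of Raet1d and Raet1e, which rest on 4 and 3 WT UMIs.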
